A study of Mus musculus with 4 samples.

Results

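The genes described here are solute carriers of the Slc series that were well measured in RNA of microglial isolates from mouse embryos (day 14). Microglia are the macrophages that reside in brain tissue. A gene belongs if its symbol is Slc, a family number, the letter a and a member number, and if its raw counts over the 4 libraries sum to at least 500. Slc1a3, Slc2a5 and Slc40a1 were left out. The rule took 160 of 311 genes with such a symbol, out of 26051 features in the table, and 148 genes lay under the minimum. Solute carriers with another letter in the symbol, such as Slc35b1, and those named Slco or Mfsd are not members. Members were thus chosen by their summed count, and their levels are given as a description, with no test. The sum runs over both groups and does not use the difference between them. Near the minimum, however, a gene can belong only through the group where it is higher. The fold changes of members with few counts, such as Slc22a8 and Slc28a2, may be shaped by this.

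The libraries are titled ko (numbers 1 and 3) and ff (numbers 2 and 5), 2 in each group, and ff is taken as the comparison group. The ko libraries are labelled as a conditional cre-loxP knockout of Hat1, which encodes a histone acetyltransferase. The series asks, by its title, how microglial Hat1 bears on neural stem cells of the cortex. The labels do not spell out ff or give the Cre driver, the deleted exons, the strain or whether a library came from 1 embryo or several. The p-values therefore measure the spread between these libraries, which may be technical.

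Solute carriers move nutrients, ions, metals, vitamins and neurotransmitters across membranes, driven by gradients and not directly by ATP. Some sit in the plasma membrane, others in lysosomes, the Golgi or mitochondria, where the large Slc25 family exchanges metabolites across the inner membrane. In macrophages they supply glucose and amino acids, export lactate, clear nucleosides and digestion products from lysosomes and withhold metals from microbes.

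The libraries held between 14814846 and 18990917 counts, and the 160 members took between 1.14% and 1.20% of them. Hat1 itself had 44.3 and 71.4 CPM (counts scaled to 1e6 per library, with edgeR's scaling factors) in ff 2 and ff 5, and 39.2 and 36.6 CPM in ko 1 and ko 3. Its log2 fold change of -0.61 ± 0.23 (SE) did not pass, with an edgeR adjusted p of 0.298, so ko names the labelled genotype throughout. Ko 1 was the only library with Y-linked transcripts, at 3188 counts of Ddx3y against 0 in each of the others, so that library and sex cannot be told apart. The markers fixed for the labelled cell type were present, with 10 of 11 microglial markers measured and a summed level of 11796 and 11641 CPM in ff and 10196 and 9685 in ko. Border-associated macrophage markers were also present, at 21325 and 18956 CPM in ff and 14844 and 16645 in ko in sum over 8 genes, and so were markers of neural progenitors and astroglia and of fibroblasts. Lymphocyte markers were low but higher in both ko libraries. In sum over 7 genes they had 23.1 and 18.1 CPM in ff and 39.3 and 35.6 in ko. Of 6 tested, 1 passed, where 1.70% of all genes did. Among border-associated macrophage and microglial markers, Cd163 and Cx3cr1 passed as lower in ko and Tmem119 as higher. Of the monocyte and neutrophil markers, Ccr2 passed as higher. Mpo and Elane were read 156 and 38 times in ko 1 and at most 4 times in any other library. The part of these other cells in the results below was not tested. Levels are therefore those of the isolate, and fewer cells of a type cannot be told apart from less RNA per cell.

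Among all 160 solute carriers, 0 differed between ko and ff at an adjusted p of at most 0.05 in edgeR's quasi-likelihood test. Over all 15840 genes tested, 1.70% passed (1.19% higher and 0.518% lower in ko), which for 160 genes would come to 2.73. Among genes with at least 500 counts, as all members have, 2.44% passed, which would come to 3.9. The count of 0 lies a few genes below both. It was not tested against them and is not read as a trait of solute carriers. DESeq2 called 3 members, 1 higher and 2 lower, where it called 3.50% of all genes, and limma-voom called 0 members and 1.54% of all genes. Other scalings gave 1 member with DESeq2 size factors in edgeR (1.76% of all genes) and 2 with no scaling factors (2.30%). With no filter on low counts 15 members were called (5.32%), and with at least 50 counts in each of 2 libraries 0 (2.18%). Leaving out 1 library gave 0 members without ff 2 (1.19%), 5 without ff 5 (2.73%), 11 without ko 1 (6.07%) and 9 without ko 3 (7.34%). At an unadjusted p under 0.05 there were 8 members higher and 15 lower in ko, 14.4% of the members against 16.2% of all genes (8.62% higher and 7.56% lower) and 20.2% of genes with at least 500 counts. The members' median log2 fold change was -0.03, beside 0.01 over all genes tested. Both ko libraries lay above both ff libraries in 31 members and below them in 45, together 47.5%, where 49.6% of all genes had groups that did not overlap (25.8% higher and 23.8% lower), and 53.9% of those with at least 500 counts.

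The 95% interval of the log2 fold change lay within 1 on either side of no change for 145 of 160 members, and within 0.5 for 94. Slc3a2, for example, had an interval of -0.12 to 0.24, and Slc29a1 one of -0.24 to 0.08. Members read at few counts or with libraries far apart had wide intervals, as the examples below show.

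Levels were compared between genes per kilobase of exon. The highest level was that of Slc29a1, the equilibrative nucleoside transporter of the plasma membrane, at 268.4 CPM per kilobase. Slc9a9, a sodium-proton exchanger of endosomes, followed at 175.1, and Slc25a5, an ADP/ATP carrier of mitochondria, at 150.2 CPM per kilobase. Slc25a11, which exchanges oxoglutarate for malate, had 132.4, and Slc3a2, the heavy chain that carries several amino acid transporters to the surface, had 110.1 CPM per kilobase. The zinc transporter of the endoplasmic reticulum, Slc39a7, had 105.0. Slc25a39, a mitochondrial glutathione importer, Slc7a8, a light chain partner of Slc3a2 for neutral amino acids, the lysosomal carrier Slc46a3 and Slc25a45 lay between 84.0 and 99.7 CPM per kilobase. These 10 held 36.1% of the summed level per kilobase of all members, whose median was 9.46 and whose lowest was Slc4a3, a bicarbonate exchanger, at 1.29.

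**Figure D1:**
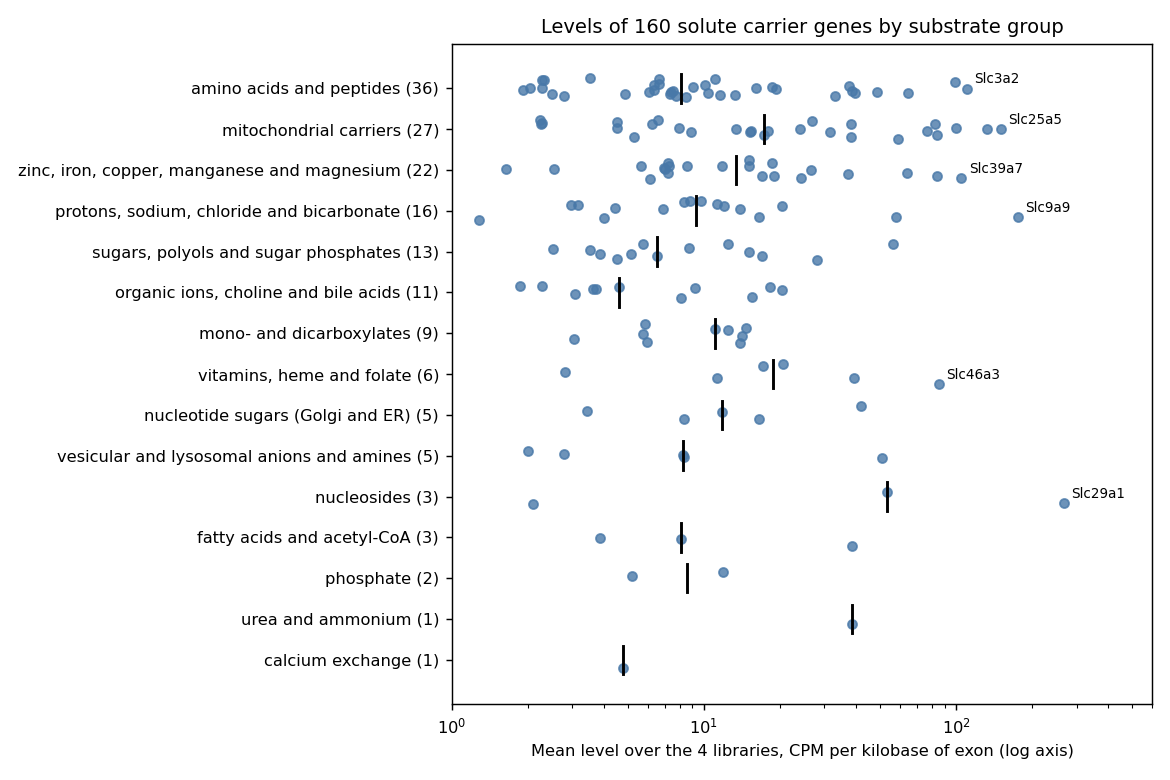
Mean level of each of the 160 solute carriers over the 4 libraries, in CPM per kilobase of exon on a log axis, by substrate group with the number of members in parentheses; black lines are group medians. Slc29a1 at 268.4 lies at the top, and 39 members lie under 5 CPM per kilobase.

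Near the minimum of 500 counts, Slc25a15, the ornithine carrier of mitochondria, and Slc17a6, a vesicular glutamate transporter of neurons, lay just inside with 514 and 537 counts in sum. Slc16a12 and Slc25a27 lay just outside, with 497 each.

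The groups below follow the family number, so a few members carry something else than the name says. Slc5a6, for example, carries biotin and pantothenate and stands with the sugars, and Slc13a4, a sulfate transporter, stands with the carboxylates. In each group the count of members past the threshold was 0.

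Amino acid and peptide carriers were the largest group, with 36 members and a median log2 fold change of -0.03. The values of Slc3a2 were 328.5 and 323.9 CPM in ff and 323.6 and 354.9 in ko, which overlap. Slc7a8 had 490.4 and 403.9 CPM in ff and 346.3 and 374.5 in ko. Both ko libraries lay below both ff libraries, with a log2 fold change of -0.31 ± 0.10 (SE) and an adjusted p of 0.212. Slc38a10 was the other of the most abundant pair of this group, at 363.6 ± 15.2 CPM in the ff libraries and 336.5 ± 13.2 in those of ko (SD, n = 2 each).

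Slc6a6, the taurine transporter, had 290.0 and 258.9 CPM in ff 2 and ff 5, and 215.4 and 192.0 CPM in ko 1 and ko 3. The ko libraries were both lower, with a log2 fold change of -0.43 ± 0.09 (SE). The adjusted p of 0.0732 missed the threshold in edgeR and was 0.0133 in DESeq2. With 1 library left in a group, the log2 fold change was -0.53 without ff 5, -0.53 without ko 1, -0.35 without ff 2 and -0.35 without ko 3.

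Slc15a3, a lysosomal carrier of histidine and small peptides that Toll-like receptor ligands induce in macrophages, had 20.0 and 21.2 CPM in ff and 27.3 and 28.5 in ko. Its groups did not overlap, with a log2 fold change of 0.43 ± 0.12 (SE) and an adjusted p of 0.148. In the same libraries 18 of 20 genes of an interferon response list passed the threshold, all higher in ko, with a median log2 fold change of 1.78. Over all genes tested, 1.19% passed as higher in ko. That list was chosen with earlier results of these data known, and its relation to Slc15a3 was not tested. The other members of family Slc15 did not share a direction. Slc15a4 had a log2 fold change of 0.18 with an adjusted p of 0.336, and Slc15a2, a peptide importer, had -0.33 with an adjusted p of 0.332. Slc1a4, a carrier of alanine, serine and cysteine, had 140.8 and 170.3 CPM in ff and 122.7 and 188.2 in ko. The means of its groups were nearly equal, at 155.5 and 155.4 CPM, but its interval of -0.66 to 0.66 was wide because the libraries of each group differed.

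Mitochondrial carriers, all of family Slc25, numbered 27, with a median log2 fold change of 0.01. Slc25a38, which brings glycine into mitochondria for heme synthesis, had 22.98 and 21.4 CPM in ff and 36.6 and 28.3 in ko. Both ko libraries were higher, by 0.55 ± 0.15 (SE) on the log2 scale, at an adjusted p of 0.140. Without ko 3 the difference was 0.72 and without ko 1 it was 0.34, with 1 ko library left in each case. Slc25a5 had 213.1 and 194.4 CPM in ff and 170.2 and 167.1 in ko, a log2 fold change of -0.27 ± 0.08 with an adjusted p of 0.162. Slc25a4, the other ADP/ATP carrier gene among the members, had 139.6 and 145.7 CPM in ff and 150.2 and 154.9 in ko. Of these paralogs Slc25a5 thus lay lower and Slc25a4 higher in both ko libraries, the latter with a log2 fold change of 0.10 and an adjusted p of 0.562. Slc25a39 had 153.6 ± 4.10 CPM in the ff libraries and 182.2 ± 6.94 in those of ko (SD, n = 2 each), and its adjusted p was 0.187. Slc25a11 had a log2 fold change of 0.02 and overlapping groups. Slc25a45 had -0.12, with both ko libraries lower and an adjusted p of 0.513.

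**Figure D2:**
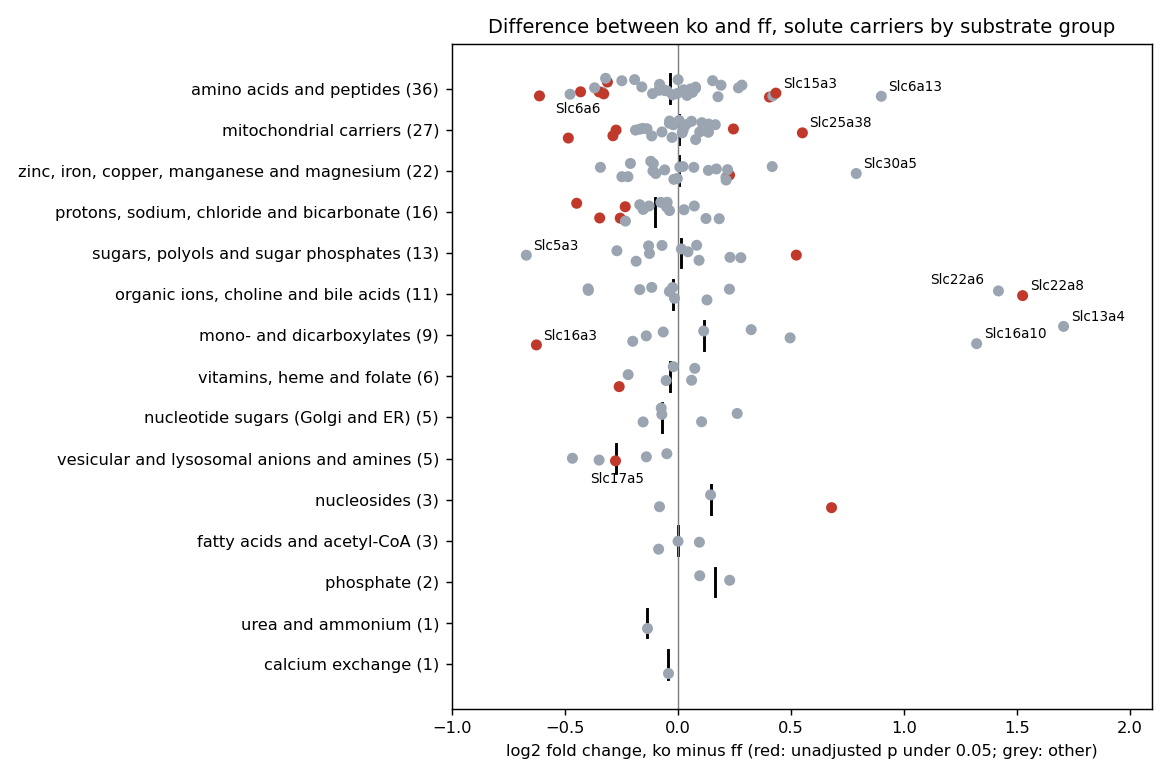
The log2 fold change of each solute carrier (ko minus ff, n = 2 libraries each) by substrate group; red points have an unadjusted p under 0.05, grey points do not, and black lines are group medians. Most points lie between -0.5 and 0.5, and the 4 points beyond 1 are Slc13a4, Slc22a8, Slc22a6 and Slc16a10.

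Carriers of mono- and dicarboxylates, 9 members with a median log2 fold change of 0.11, held the member closest to the threshold. Slc16a3, the lactate exporter of glycolytic cells, had 71.6 and 78.9 CPM in ff 2 and ff 5, and 54.0 and 43.5 CPM in ko 1 and ko 3. The ko libraries were both lower, and the log2 fold change was -0.63 ± 0.12 (SE), with an adjusted p of 0.0522 in edgeR, 0.00398 in DESeq2 and 0.0564 in limma-voom. With 1 library left in a group, the log2 fold change was -0.80 without ko 1, -0.48 without ko 3, -0.70 without ff 2 and -0.58 without ff 5. With DESeq2 size factors in the edgeR test the adjusted p was 0.0478.

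Slc16a1, which carries lactate in either direction, had 49.9 and 65.2 CPM in ff and 66.8 and 77.6 in ko. The difference was 0.32 ± 0.14 (SE) on the log2 scale, at an adjusted p of 0.328. Slc16a7, a high-affinity relative, had 69.5 and 68.6 CPM in ff and 66.1 and 59.2 in ko, and an adjusted p of 0.489. The 3 lactate carriers thus did not share a direction. Of 19 tested genes of a glycolysis list 0 passed, where 1.70% of all genes did, at a median log2 fold change of -0.05.

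The sequence before the start of Slc16a3 is given because the gene lay closest to the threshold and is a known target of the hypoxia-inducible factor. The 250 bases are those of RefSeq on GRCm38.p6, at chr11:120948817-120949066 on the plus strand, whereas the submitters' processing notes name GRCm39. Capitals mark ACGTG, the core of a hypoxia response element, searched on both strands.
Slc16a3: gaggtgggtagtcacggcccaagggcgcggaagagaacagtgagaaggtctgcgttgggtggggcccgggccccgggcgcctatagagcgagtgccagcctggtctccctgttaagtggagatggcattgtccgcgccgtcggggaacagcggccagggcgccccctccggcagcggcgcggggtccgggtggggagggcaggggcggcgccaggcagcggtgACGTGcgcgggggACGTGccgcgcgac
This window held 2 matches, beginning 27 and 14 bases before the start. The motif was in 16.6% of all 32851 promoter windows of this length. Of the 117 members with a window, 31 (26.5%) had it in any of their windows. The first share is per window and the second per gene, so they cannot be compared directly.

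**Figure D3:**
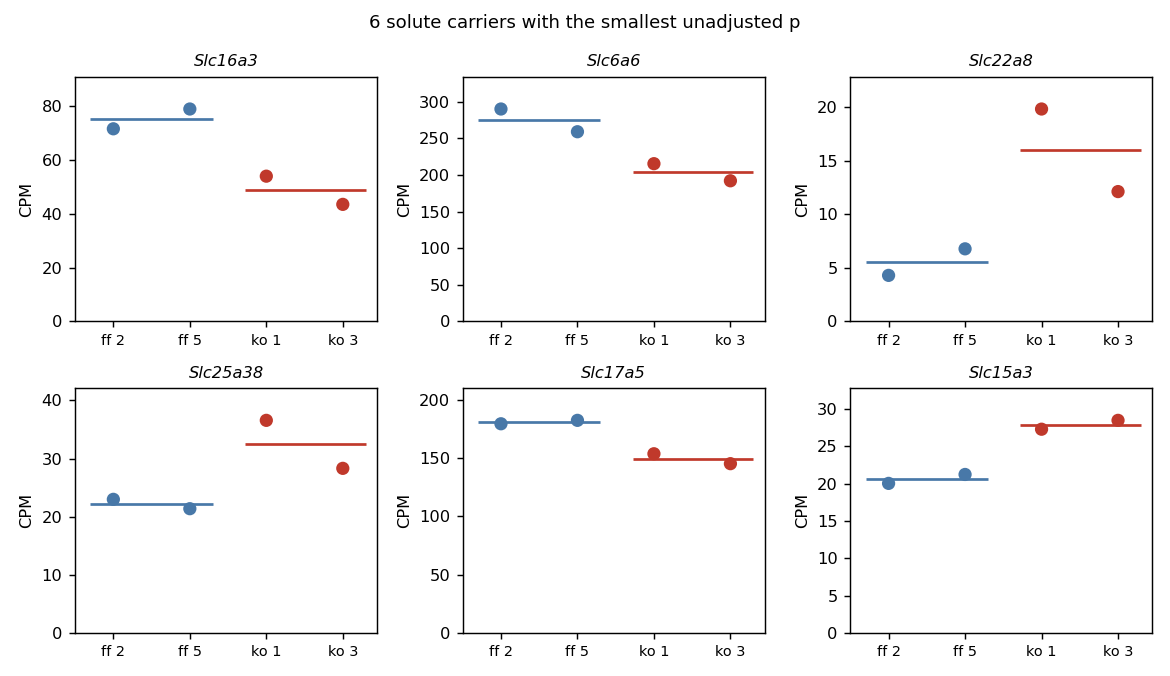
CPM in each library for the 6 solute carriers with the smallest unadjusted p, ff in blue and ko in red, with horizontal lines at the group means. In all 6, which were chosen by their p, the ko and ff libraries do not overlap. The same held for 49.6% of all genes and 53.9% of those with at least 500 counts. Slc16a3 lies between 43.5 and 54.0 CPM in ko and between 71.6 and 78.9 CPM in ff.

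Carriers of organic ions, choline and bile acids, 11 members with a median log2 fold change of -0.02, held a pair of neighbouring genes of one family. Slc22a8, an organic anion transporter known from kidney and choroid plexus, had 4.30 and 6.77 CPM in ff 2 and ff 5, and 19.8 and 12.1 CPM in ko 1 and ko 3. Both ko libraries were higher, 2.88-fold in the fit, and the log2 fold change was 1.53 ± 0.32 (SE). The adjusted p was 0.0842 in edgeR, 0.000695 in DESeq2 and 0.126 in limma-voom. With 1 library left in a group, the log2 fold change of Slc22a8 was 1.11 without ko 1, 1.83 without ko 3 and 1.87 without ff 5. It was 1.24 without ff 2, the library with the lowest value. Slc22a6, its relative with the same kind of substrate, had 4.70 and 11.5 CPM in ff and 29.7 and 13.7 in ko. The difference was 1.42 ± 0.62 (SE) on the log2 scale, at an adjusted p of 0.386, and 0.75 without ko 1, where ko 3 stands alone. In this gene the libraries lay over 2-fold apart in ff and also in ko.

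The windows before the starts of Slc22a6 and Slc22a8 are given because these genes had the same order of libraries. Both lie on chromosome 19, at chr19:8617746-8617995 and chr19:8592932-8593181 of GRCm38.p6 (RefSeq), on the plus strand. Capitals mark GTTAAT, a half-site of hepatocyte nuclear factor 1, searched on both strands.
Slc22a6: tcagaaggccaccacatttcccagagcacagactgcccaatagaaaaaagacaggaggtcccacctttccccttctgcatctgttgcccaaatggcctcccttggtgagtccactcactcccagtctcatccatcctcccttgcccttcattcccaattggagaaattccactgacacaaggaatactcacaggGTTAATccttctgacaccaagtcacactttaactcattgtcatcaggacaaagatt
Slc22a8: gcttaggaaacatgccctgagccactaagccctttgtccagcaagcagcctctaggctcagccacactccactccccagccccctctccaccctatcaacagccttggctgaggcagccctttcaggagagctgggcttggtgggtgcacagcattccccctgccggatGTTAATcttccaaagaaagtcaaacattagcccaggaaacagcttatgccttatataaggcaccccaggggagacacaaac
Each window held 1 match, beginning 56 bases before the start in Slc22a6 and 81 in Slc22a8. The half-site was in 6.43% of all windows. Counted per gene, in any of its windows, it was in 7 of the 117 members with a window, 5.98% of them.

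Libraries of a group lay over 2-fold apart in 6 members. Between ko 1 and ko 3 this held for Slc13a4, Slc16a10, Slc22a6, Slc30a5 and Slc30a9, with ko 1 above ko 3 in each, as in 137 of 152 such genes with at least 500 counts, and between ff 2 and ff 5 for Slc22a6 and Slc6a13. That is 3.13% of members in ko and 1.25% in ff, against 1.53% and 0.342% of all genes with at least 500 counts. Slc13a4, a sulfate transporter, had 7.02 and 11.8 CPM in ff, 49.5 in ko 1 and 11.9 in ko 3. The difference was 1.71 ± 0.88 (SE) on the log2 scale, at an adjusted p of 0.464, and 0.33 without ko 1. Slc16a10, a carrier of aromatic amino acids, had 21.6 and 23.2 CPM in ff, 86.1 in ko 1 and 25.7 in ko 3, and a log2 fold change of 1.32 ± 0.70, which was 0.18 without ko 1. In both genes ko 3 lay close to the higher ff library and ko 1 far above the others.

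The zinc transporters Slc30a5, of the early secretory pathway, and Slc30a9, of mitochondria, were also highest in ko 1. Slc30a5 had 15.7 and 17.8 CPM in ff, 40.5 in ko 1 and 17.3 in ko 3. Slc30a9 had 27.5 and 27.8 CPM in ff, 50.6 in ko 1 and 23.1 in ko 3, so ko 3 was its lowest library. Without ko 1 their log2 fold changes were 0.03 and -0.27. Slc6a13, a GABA transporter of meningeal cells, had 7.43 and 16.7 CPM in ff, 28.9 in ko 1 and 16.3 in ko 3. Thus ff 5 and ko 3 were close together. It also stands in the list of mural cell and fibroblast markers.

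In the other 9 genes of that list the summed level was 294.3 CPM in ff 2, 446.9 in ff 5, 699.7 in ko 1 and 498.1 in ko 3, and none of the 9 was at 0 in all libraries. Of these 9 genes, 5 were highest in ko 1 and 7 lowest in ff 2. Col1a1 had 61.8, 93.6, 166.4 and 94.6 CPM in that order and Dcn 57.2, 57.6, 160.7 and 66.8. In Col1a1 and Dcn the lowest library was ff 2 and the highest ko 1, as in Slc13a4, Slc16a10, Slc22a6, Slc22a8, Slc30a5 and Slc6a13. The mural cell markers had other orders. Rgs5, at 72.5, 102, 61.2 and 137 CPM, and Abcc9 were lowest in ko 1, and Pdgfrb and Kcnj8 were highest in ko 3. The part of these cells in the values of the carriers was not tested.

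**Figure D4:**
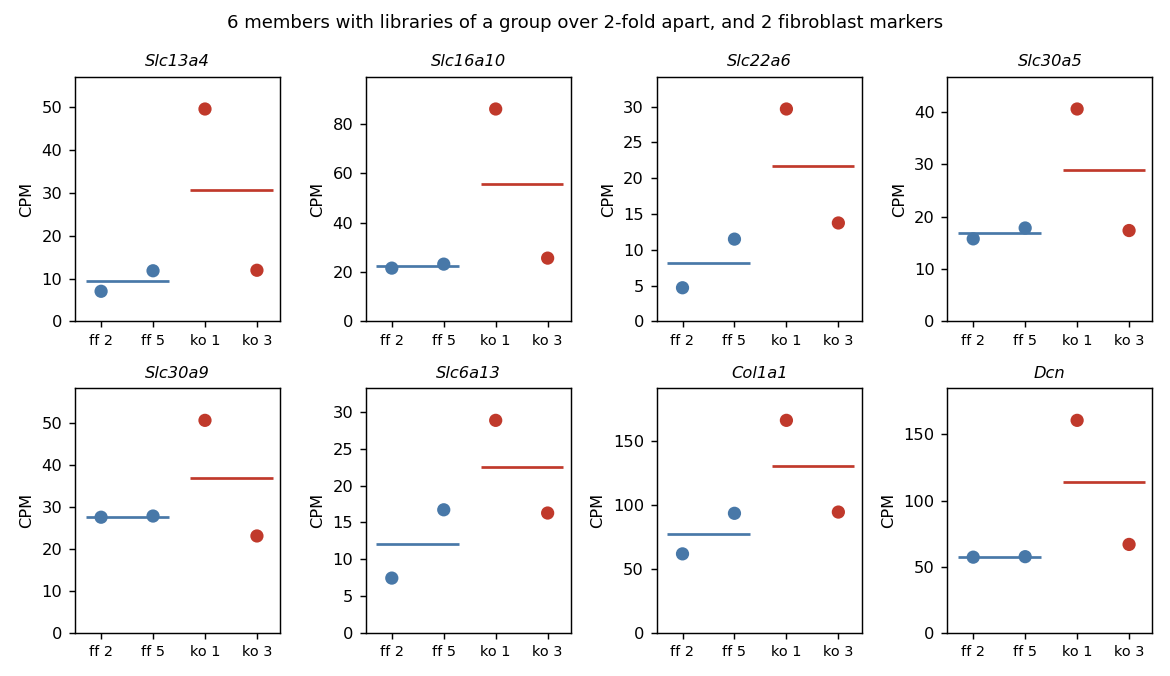
CPM in each library for the 6 members whose libraries within a group lay over 2-fold apart, and for the fibroblast markers Col1a1 and Dcn; ff in blue, ko in red, lines at group means. Library ko 1 is the highest in every panel, at 86.1 CPM for Slc16a10 and 166.4 CPM for Col1a1. Of the 9 mural cell and fibroblast markers beside Slc6a13, 5 were highest in ko 1.

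Nucleoside carriers numbered 3. Slc29a1 had 746.1 and 719.3 CPM in ff and 678.5 and 707.2 in ko, a log2 fold change of -0.08 ± 0.07 (SE). Slc29a3, its lysosomal relative, had 262.7 and 267.5 CPM in ff and 299.8 and 286.5 in ko, with a log2 fold change of 0.15 ± 0.07 and an adjusted p of 0.371. Slc28a2, which concentrates purine nucleosides with sodium, was read at far fewer counts, 97 and 103 in ff and 194 and 167 in ko. This came to 6.51 ± 0.153 and 10.4 ± 0.143 CPM (SD, n = 2 each). The difference was 0.68 ± 0.19 (SE) on the log2 scale, with an adjusted p of 0.153. Slc29a1 lay lower and the others higher in both ko libraries. Groups apart in this way were also found in 49.6% of all genes.

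Carriers of protons, sodium, chloride and bicarbonate had 16 members and a median log2 fold change of -0.10. Of the 16, 0 were higher and 4 lower in ko at an unadjusted p under 0.05, a share of 25% where 16.2% of all genes and 20.2% of genes with at least 500 counts had such a p. Slc9a9 had 692.8 and 628.7 CPM in ff and 541.4 and 566.3 in ko. Both ko libraries lay lower, with a log2 fold change of -0.25 ± 0.08 (SE) and an adjusted p of 0.187. Slc12a2, the sodium-potassium-chloride importer, had 61.7 and 63.4 CPM in ff and 52.2 and 39.5 in ko, and an adjusted p of 0.187. Its log2 fold change of -0.45 was -0.68 without ko 1, where ko 3 stands alone, and -0.26 without ko 3. Without ff 2 it was -0.47 and without ff 5 it was -0.45. Slc26a11, an anion carrier, was also among the 4, at a log2 fold change of -0.35. Slc12a9, second in CPM here, had a log2 fold change of 0.12 with an adjusted p of 0.511. The calcium exchanger Slc8a1, alone in its group, was at -0.04.

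Metal carriers numbered 22, with a median log2 fold change of 0.0036. Slc31a1, the copper importer, had 301.5 and 264.9 CPM in ff and 254.1 and 275.4 in ko, which overlap. Slc39a7 had 243.6 and 255.2 CPM in ff and 242.5 and 250.5 in ko, with an interval of -0.19 to 0.15. Slc11a1, a phagosomal metal transporter of macrophages that starves ingested microbes, had 171.4 and 188.7 CPM in ff and 223.8 and 193.6 in ko. Its groups did not overlap, and its log2 fold change of 0.21 ± 0.10 (SE) had an adjusted p of 0.325. Of 14 tested genes of a list of metal binding and transport 0 passed, where 1.70% of all genes did.

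Sugar carriers numbered 13, with a median log2 fold change of 0.02. Slc2a8, a glucose transporter of inner membranes, had 111.8 and 118.0 CPM in ff and 118.8 and 124.7 in ko. Slc2a1, the glucose transporter of most cells, had 87.5 and 107.7 CPM in ff and 84.5 and 87.3 in ko, with an adjusted p of 0.450. Slc5a3, which imports myo-inositol as an osmolyte, had 52.5 and 51.6 CPM in ff, 41.3 in ko 1 and 23.96 in ko 3. Its log2 fold change of -0.67 ± 0.26 (SE) had the lowest value of all members and an adjusted p of 0.309. Without ko 1 the log2 fold change was -1.13, where ko 3 stands alone, and without ko 3 it was -0.34.

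Lysosomal and vesicular carriers of anions and amines numbered 5 and had a median log2 fold change of -0.28. Slc17a5, which releases sialic acid from lysosomes, had 179.3 and 182.2 CPM in ff and 153.6 and 145.1 in ko. The groups did not overlap and differed 1.21-fold, with a log2 fold change of -0.28 ± 0.08 (SE) and an adjusted p of 0.140. Slc18a2, which loads monoamines into vesicles, had 41.9 and 30.4 CPM in ff and 30.7 and 21.5 in ko, an overlap, with an adjusted p of 0.374.

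Vitamin and heme carriers numbered 6. Slc46a3 had 239.0 and 216.2 CPM in ff and 182.6 and 197.8 in ko, with groups apart and an adjusted p of 0.204. Slc23a2, the ascorbate transporter, had 131.3 ± 8.13 CPM in the ff libraries and 129.6 ± 0.411 in those of ko (SD, n = 2 each). Among the small groups, the nucleotide sugar carriers Slc35a4 and Slc35a5 had log2 fold changes of -0.07 and -0.15, and the phosphate carriers Slc20a1 and Slc20a2 had 0.10 and 0.23. The fatty acid carrier Slc27a1 had -0.08, Slc33a1, which brings acetyl-CoA into the endoplasmic reticulum, 0.10, and the urea transporter Slc14a1 -0.13. The choline-like carrier Slc44a2 and Slc10a7 were at -0.04 and -0.01. Adjusted p lay between 0.395 and 0.962 in these 9 genes.

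Other transporter genes were read from lists beside the members. Of 56 tested solute carriers outside the symbol pattern 1 passed, Sfxn5, a mitochondrial sideroflexin, at 115.9 ± 7.35 CPM in the ff libraries and 80.1 ± 3.70 in those of ko (SD, n = 2 each). It fell with a log2 fold change of -0.53 ± 0.09 (SE) and an adjusted p of 0.0282. Of 31 ABC transporters, which are driven by ATP, 1 passed, Abca9, which fell from 517.1 ± 19.4 to 392.3 ± 15.8 CPM with an adjusted p of 0.0462. The count of genes past the threshold was 0 in each of the lists of the sodium-potassium pump (11 tested), transporter partners (11), the amino acid stress response (18), glutathione and thioredoxin (16) and lysosomal nutrient sensing (20). Their median log2 fold changes were 0.02, 0.10, 0.21, 0.26 and 0.01 in that order. Over all genes tested 1.70% passed, 0.518% as lower in ko. The list counts were not tested against these shares and are not read as traits of the lists.

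**Figure D5:**
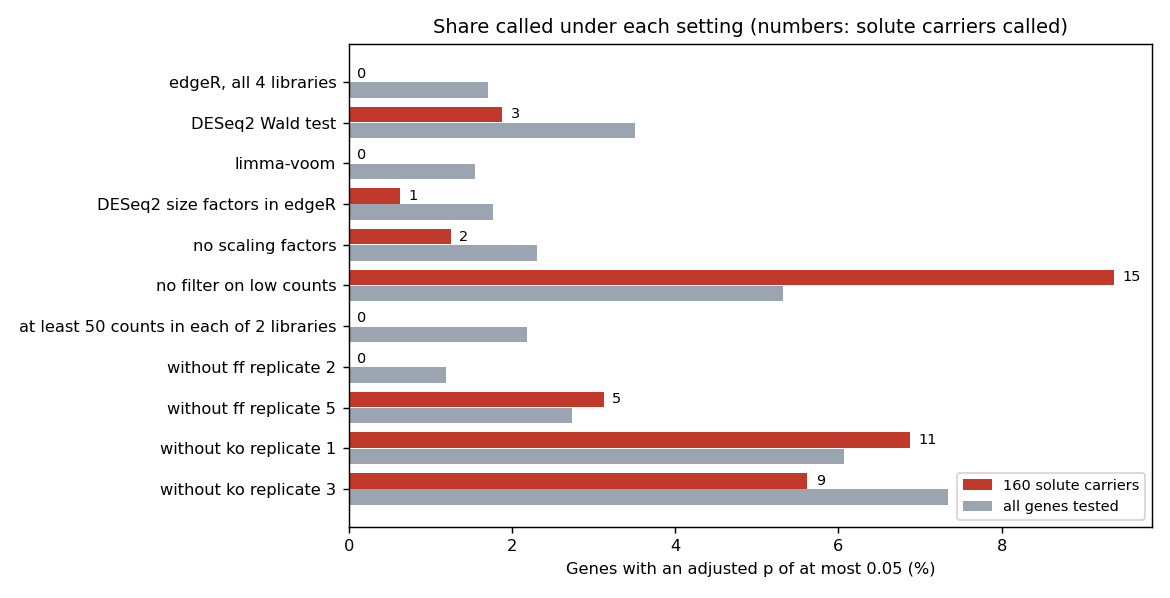
Share of genes with an adjusted p of at most 0.05 under each test, scaling, filter and left-out library, for the 160 solute carriers (red, with the number called) and for all genes tested (grey). The number of solute carriers called lies between 0 and 15, with 0 in the edgeR test of all 4 libraries.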

How the data were processed

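RNA sequencing libraries of cells isolated as microglia were compared, 2 titled ko with 2 titled ff. The submitters' processing notes name CASAVA, HISAT2 2.0.5, DESeq2 and GRCm39, without their roles. How reads were counted, with which annotation and strand setting, is not given in the sources used here. A single deposited table holds raw counts per gene made by the authors, and 3 lines without counts were left out of 26054. Genes were filtered with filterByExpr (15840 left), scaled by trimmed mean of M-values and tested with edgeR 4.0.16 (robust quasi-likelihood, R 4.3.3), with Benjamini-Hochberg adjustment over all genes tested and a threshold of 0.05. All 160 members passed the filter. With 2 against 2 libraries an exact permutation test could give no p under 0.333. Replicate libraries were not copies of each other: chi-square per degree of freedom was 7.25 between the ff and 13.9 between the ko libraries. Exon lengths came from GENCODE M21, matched by symbol or older symbol for all 160 members. That annotation is of another build, so levels per kilobase are approximate. The members and lists were chosen with earlier results of these data known. Genes were named by a rule: members past the threshold, the 10 highest in CPM and in CPM per kilobase, up to 2 per substrate group, the 6 smallest p that missed, the 3 largest splits between libraries, the members nearest the minimum, and list genes past the threshold. Any other gene was named after its values were seen. Alternatives were DESeq2 1.42.0, limma-voom (limma 3.58.1), other scalings and filters, other membership minimums and each library left out. The test was checked on simulated counts. Some members are counted in the totals but not reported here by name.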

Additional observations from a re-analysis of the deposited data

How the results depend on the processing

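The calls among the members depended on the setting. DESeq2 called 1 member higher and 2 lower (Slc22a8, Slc16a3 and Slc6a6), with 554 genes called in all (3.50%). DESeq2 size factors in edgeR gave 0 higher and 1 lower (1.76% of all genes called), and no scaling factors gave 0 higher and 2 lower (2.30%). Without a filter on low counts there were 5 higher and 10 lower members and 1386 genes called in all (5.32%). Leaving out a library gave 0 to 6 members higher and 0 to 7 lower, with 198 to 1213 genes called in all, against 270. Members called were 0 without ff 2 (1.19% of all genes), 5 without ff 5 (2.73%), 11 without ko 1 (6.07%) and 9 without ko 3 (7.34%). Limma-voom (1.54%), a filter of 50 counts in 2 libraries (2.18%) and membership minimums of 200 and 2000 counts called 0 members. The cause of these differences was not tested. The members' median log2 fold change stayed between -0.05 and -0.03 in every setting run. With 1 library left in a group, that library was assumed to vary like the others. No paired analysis was possible because the ko and ff titles share no replicate number.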

Other observations

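Solute carriers under the minimum of 500 counts numbered 148, of which 78 passed the filter on low counts. Of those, 0 had an adjusted p of at most 0.05 by edgeR, where 1.70% of all genes did. At an unadjusted p under 0.05 by edgeR, 6 were higher and 5 lower in ko. That is 14.1% of the 78, against 16.2% of all genes (8.62% higher and 7.56% lower). The genes named here were chosen after their values were seen. Slc16a14, an orphan of the monocarboxylate carrier family, was read 101 and 91 times in ff, 36 times in ko 1 and 45 times in ko 3, a log2 fold change of -1.40 with an adjusted p of 0.0776. Slc22a2, an organic cation transporter of the kidney, was read 6 and 8 times in ff, 29 times in ko 1 and 30 times in ko 3, a log2 fold change of 1.90 with an adjusted p of 0.124. Slc19a2, a thiamine transporter, had 27 and 22 counts in ff, 218 in ko 1 and 52 in ko 3, another gene with ko 1 far above ko 3.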
